A study of Danio rerio with 8 samples.

Results

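The chaperone genes described here are the protein folding genes measured in sorted cells of the injured zebrafish heart. A gene was taken where its symbol, in any case, begins with hsp and a letter or digit (hspg left out), dnaj, cct and a digit, tcp1, bag and a digit, calr, canx, pdia or serpinh. That rule uses names only, no measured value, and takes 73 of 10479 genes. They are 10 Hsp70, 4 Hsp90, 3 Hsp110, 2 Hsp60/Hsp10, 2 small heat shock protein, 8 CCT, 6 BAG and 29 DNAJ genes, 2 lectin chaperones, 4 protein disulfide isomerases and the collagen chaperone SERPINH1. The letters tcp1 also take TCP11L1 and TCP11L2, which are not known as chaperones, so 2 genes stand outside the classes. By the known place of their proteins, 44 genes were put in the cytosol or nucleus (called cytosolic here), 20 in the endoplasmic reticulum (ER) and 7 in mitochondria. No row carried the symbol HSPA5, the main Hsp70 of the ER, and it was not analysed here.

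Cells came from Tg(wt1b:eGFP; mpeg1:mCherry) zebrafish aged 6 to 9 months whose ventricle had been cryoinjured, and were sorted at 4 days post injury. Both populations carry the red reporter of mpeg1, a macrophage gene. The eGFP/mCherry double positive cells also carry green fluorescence from the wt1b promoter, wt1b being a zinc finger transcription factor of the epicardium and kidney. The mCherry single positive cells, without green signal, are what they are set against. Each population has 4 libraries, numbered 1, 2, 4 and 5, each from RNA of 5 to 7 pooled hearts, and libraries 1 and 2 were built in batch 1 and libraries 4 and 5 in batch 2. A reporter marks cells in which its transgene is or was active, so the sort is by fluorescence and not by wt1b or mpeg1 protein.

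Chaperones bind unfolded or partly folded proteins and keep them from aggregating until they fold, are moved or are degraded. Hsp70 proteins cycle between ATP and ADP states, and J-domain proteins of the DNAJ family bring them clients and speed up ATP hydrolysis. Hsp110 and several BAG proteins exchange the nucleotide so that the client is let go. Hsp90 takes over late clients such as kinases and receptors, and the CCT ring folds actin and tubulin inside a closed chamber. In the ER, calnexin and calreticulin hold glycoproteins while disulfide isomerases join their cysteines. Heat shock, oxidants and tissue dissociation raise many cytosolic members through heat shock factor, and an ER load raises ER members through the unfolded protein response.

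Values are normalized counts as the authors named them, on a linear scale, with no read depth given. Column totals were 868929 to 1021901 in double positive and 803220 to 951137 in single positive libraries. Double positive library 1 stands apart, with 42.3% of genes under a value of 1, against 10.7% to 19.7% in the other double positive and 14.7% to 19% in single positive libraries. Of 24 macrophage markers, 12 were higher in double positive cells and 1 lower (54.2% in either direction, beside 6.69% of all genes, by the test given below). Their median log2 difference was 2.38, with 17 above 0 and 7 below. The 12 include an MPEG1 gene, several MFAP4 genes and c1qa, c1qb and c1qc. That MPEG1 gene (ENSDARG00000043093) was 191 to 601 in double positive and 4.98 to 89.5 in single positive libraries. Other MPEG1 genes overlapped. ENSDARG00000055290 was 167 to 452 in double positive and 302 to 536 in single positive libraries, and ENSDARG00000078569 was 0.073 to 13.5 and 0.0928 to 4.82. IRF8 was lower, at 1.04 to 73.6 in double positive and 52.7 to 159 in single positive libraries. Summed, the 24 took 1.57% to 2.01% of the column total in double positive and 1.55% to 1.68% in single positive libraries. Most of that sum in every library came from listed genes that were not called, so it is no measure of a macrophage share. The scavenger receptor marco was 368 to 945 in double positive and 2.08 to 92.2 in single positive libraries. SPI1 and cd68 overlapped between the populations: SPI1 was 368 to 686 in double positive and 340 to 590 in single positive libraries, and cd68 was 496 to 1046 in double positive and 300 to 760 in single positive libraries. The B cell genes PAX5, cd79a and ighm were under 1 in every double positive library. Another, ighd, was 0.502 to 25.1 in double positive and 82.5 to 249 in single positive libraries. The 11 lymphocyte markers summed to 0.0301% to 0.0637% of the column total in double positive and 0.153% to 0.353% in single positive libraries. Most of that sum in every library came from the chemokine receptor genes CXCR4 and CCR9, so it is no measure of a lymphocyte share. Endothelial markers (9 genes) summed to 0.0103% to 0.0282% in double positive and 0.0306% to 0.0755% in single positive libraries, and cardiomyocyte markers (9 genes) to 0.00345% to 0.0174% in double positive and 0.00421% to 0.0236% in single positive libraries. These are bulk samples of sorted cells, so fewer cells of a type and less RNA per cell cannot be told apart.

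Few chaperone genes passed the test between the populations. Of 72 tested members (DNAJC19 missed the filter on low values), 2 were higher in double positive cells, the vesicle co-chaperone DNAJC5 and the ER Hsp70 HSPA13, and 2 were lower, the heat-inducible hsp70.1 and the J-domain gene dnaja. The test was limma's moderated test on log2(value + 1), with library batch as a covariate and a Benjamini-Hochberg adjusted p under 0.05 over 10127 genes. It called 5.56% of the members, beside 6.69% of all genes, 3.88% higher and 2.81% lower. At an unadjusted p under 0.05 there were 5 members higher and 9 lower, beside 19.1% of all genes in either direction. The members' median log2 difference, double minus single positive, was -0.25, beside -0.16 over all genes, with 28 members above 0 and 44 below. All double positive libraries lay above all single positive libraries for 4 members (5.56%, beside 7.12% of all genes), and below them for 4 (5.56%, beside 7.0%). These shares are near those of the whole table.

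Precision varied widely among the members. The 17 genes with a mean of 100 or more over the 8 libraries had standard errors of 0.14 to 0.40 on the log2 scale, and 2 of them were called (11.8%, beside 22.8% of the 1458 genes of that level). The 55 tested genes under 100 had standard errors of 0.40 to 1.39. The level of 100 was chosen after the values were seen. For most low members a difference smaller than several-fold was therefore not detectable.

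**Figure D1:**
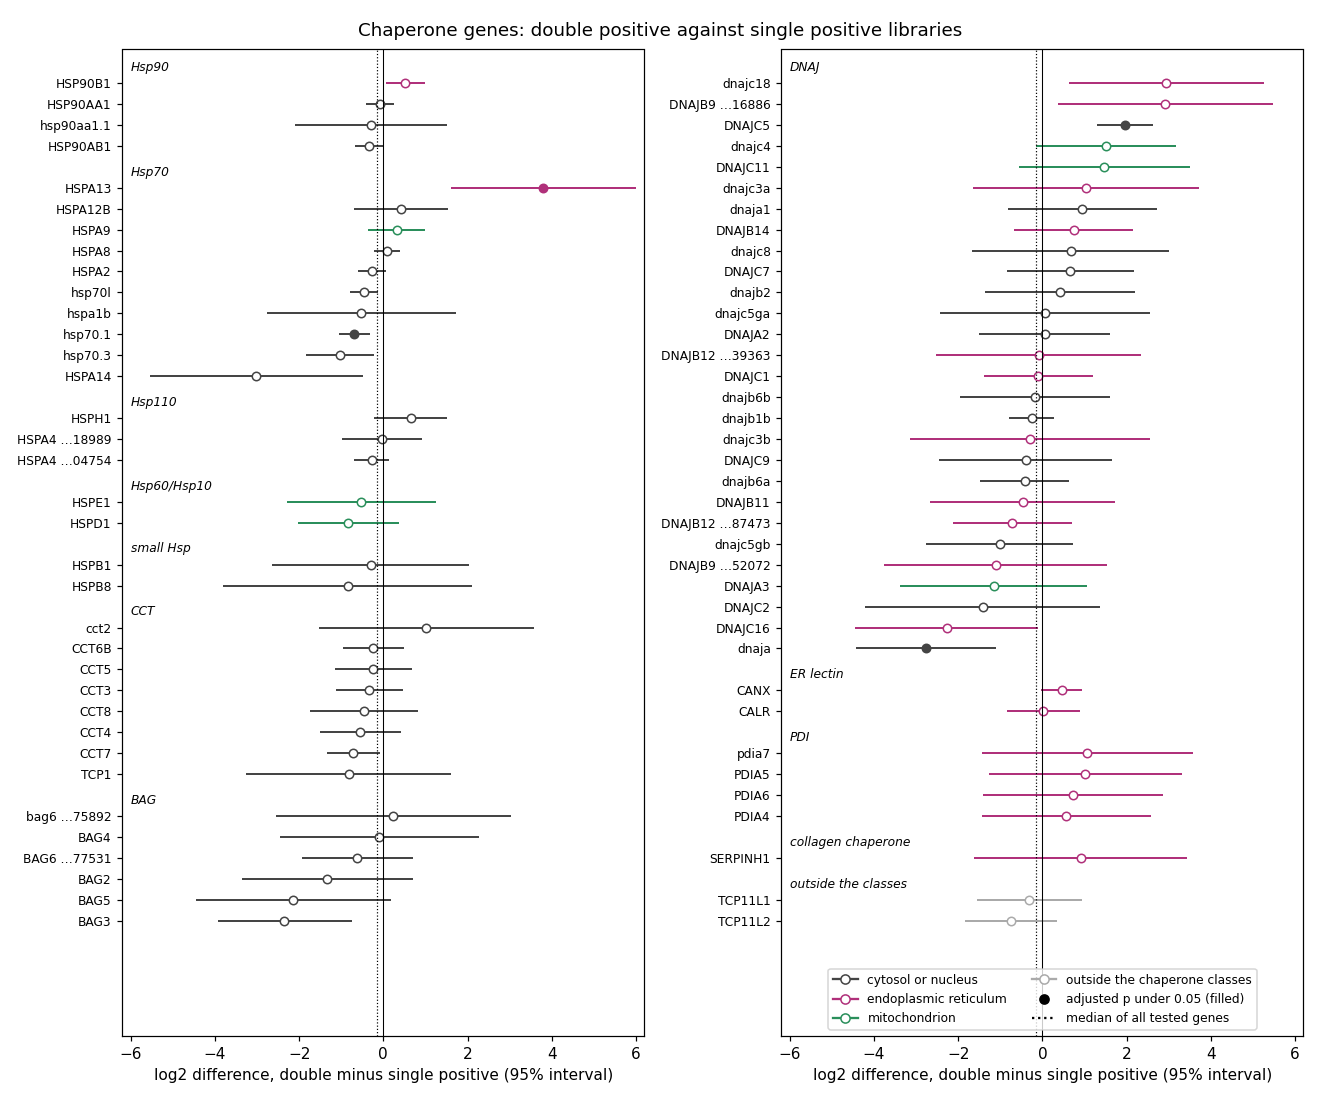
Log2 difference, double minus single positive, for every tested chaperone gene by class, with bars for the 95% confidence interval (genes that share a symbol carry the end of their identifier). DNAJC5 and HSPA13 lie right of 0 and hsp70.1 and dnaja left of it with an adjusted p under 0.05, and the interval narrows for the abundant Hsp70 and Hsp90 genes.

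Among the cytosolic Hsp70 genes, 1 heat-inducible gene passed the test, and its call depended on the scaling, the model and the libraries. The heat-inducible hsp70.1 (ENSDARG00000029688) had 1374, 1748, 3096 and 2586 normalized counts in double positive libraries 1, 2, 4 and 5, against 2955, 2479, 4457 and 3969 in single positive libraries. Within each batch both double positive libraries lay below both single positive ones, while the populations overlapped across batches because batch 2 was higher. hsp70.1 averaged 2201 ± 783 in double positive and 3465 ± 907 in single positive cells (SD, n = 4 each), and fell by 0.69 (SE 0.16) on the log2 scale, a fold of 0.621 (95% confidence interval 0.491 to 0.785, limma adjusted p = 0.0157). The log2 difference was -0.80 in batch 1 and -0.57 in batch 2. The call was lost without the mean-variance trend (limma adjusted p = 0.452) and without the batch covariate (0.0902). Median centring of the libraries gave -0.41 and ended the call (limma adjusted p = 0.545), and so did leaving out double positive library 1 (0.0735) or single positive library 1 (0.0815). Centring shifts the log2 difference of every gene by the same amount, here and below, and mainly through double positive library 1. The median value over all genes was 7.21 in that library, 18.9 to 20.4 in the other batch 1 libraries and 12.6 to 12.9 in batch 2.

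Other heat-inducible or closely related Hsp70 genes had values on the same side without passing the test. hsp70l (ENSDARG00000055723), an inducible Hsp70 used as a heat shock reporter in zebrafish, had 3384, 3890, 7760 and 6170 in double positive against 5545, 4977, 9858 and 8235 in single positive libraries. Again both double positive libraries of a batch lay below both single positive ones. Its log2 difference was -0.46 (SE 0.15, limma adjusted p = 0.0735). Leaving out each library gave limma adjusted p-values of 0.0476 (without double positive library 4) to 0.26, quantile normalization gave -0.89 (2.04e-05) and median centring gave -0.18 (0.835). HSPA2 (ENSDARG00000092362), named after a mammalian Hsp70 of germ cells, had 2278, 2262, 4511 and 3665 in double positive against 3011, 2627, 4954 and 4788 in single positive libraries, the same arrangement within each batch. Its log2 difference was smaller, -0.28 (SE 0.15, limma adjusted p = 0.315), and median centring left no difference (-0.00, limma adjusted p = 0.995).

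hsp70.3 (ENSDARG00000021924), also heat-inducible, differed between libraries of the double positive population. It had 1185, 195, 932 and 702 in double positive against 1098, 1302, 1388 and 1320 in single positive libraries, and only double positive library 1 reached the single positive range. The log2 difference was -1.03 (SE 0.37, limma adjusted p = 0.121), and it depended on the library left out: -1.49 without double positive library 1 (limma adjusted p = 0.00111) and -0.45 without double positive library 2 (0.269). These genes are close paralogs and the sources used here do not say how reads that match several of them were shared out, so the split among hsp70.1, hsp70.3, hsp70l and HSPA2 is uncertain.

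HSPA8 (ENSDARG00000068992), the constitutive Hsc70 that serves folding and clathrin uncoating in unstressed cells, did not follow the inducible genes. It had 6070, 5457, 6093 and 5601 in double positive against 4929, 5141, 5520 and 6437 in single positive libraries, overlapping ranges with little spread. The fold was 1.06 with a 95% confidence interval of 0.863 to 1.3 (log2 difference 0.08, SE 0.14, limma adjusted p = 0.815), and the sign turned to -0.23 after quantile normalization. HSPA14, a ribosome-associated Hsp70, had 2.4, 0.181, 0.186 and 0.29 in double positive against 0.561, 34.8, 32.2 and 13.4 in single positive libraries (log2 difference -3.02, SE 1.19, limma adjusted p = 0.165). Over the 8 cytosolic Hsp70 genes the median log2 difference was -0.49, beside -0.16 over all genes, with 2 above 0 and 6 below, and 1 was called (12.5%, beside 6.69% of all genes and 22.8% of those with a mean of 100 or more). Under median centring it was -0.21, beside 0.12 over all genes.

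Taken as a share of the column total, the 8 cytosolic Hsp70 genes summed to 1.57%, 1.45%, 2.20% and 2.16% in double positive libraries 1, 2, 4 and 5, against 1.86%, 1.87%, 3.24% and 3.09% in single positive libraries. The means were 1.85% ± 0.39 in double positive and 2.51% ± 0.753 in single positive cells (SD, n = 4 each). Double positive libraries were lower within either batch, and batch 2 libraries were higher in either population.

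Immediate early genes, a sign of recent signalling or of dissociation, moved on the same side as hsp70.1. Of 29 listed genes 10 fell and 1 rose in double positive cells (37.9%, beside 6.69% of all genes and 22.8% of genes with a mean of 100 or more), and the list summed to 0.542% to 0.843% of the column total in double positive and 1.25% to 1.59% in single positive libraries. FOS had 541, 567, 523 and 182 in double positive against 2924, 1666, 1812 and 1345 in single positive libraries (log2 difference -2.16, SE 0.28, limma adjusted p = 0.00028). The summed lymphocyte markers given above, mostly CXCR4 and CCR9, were also lower in double positive libraries. Neither list's part in the Hsp70 values was tested.

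Cytosolic Hsp90 genes showed small differences, none of which passed the test. HSP90AB1 (ENSDARG00000029150), the constitutive Hsp90 beta, had 2520, 2297, 2273 and 2398 in double positive against 2924, 2868, 3107 and 3015 in single positive libraries, with no overlap and little spread in either population. The means were 2372 ± 113 in double positive and 2979 ± 105 in single positive cells (SD, n = 4 each), a fold of 0.796 (95% confidence interval 0.642 to 0.987, limma adjusted p = 0.228). Median centring reduced its log2 difference of -0.33 to -0.05 (limma adjusted p = 0.957). HSP90AA1 (ENSDARG00000024746), the inducible Hsp90 alpha, had 1602, 1633, 2672 and 2780 in double positive against 1743, 1754, 2743 and 2852 in single positive libraries. Its values separated by batch and hardly by population, and the log2 difference was -0.07 (SE 0.15, 95% confidence interval -0.39 to 0.24, limma adjusted p = 0.85), turning to 0.21 under median centring and 0.04 under quantile normalization. A second alpha gene, hsp90aa1.1, known for muscle in zebrafish, was at 0.564 to 5.21 in double positive and 0.679 to 6.48 in single positive libraries.

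The Hsp110 exchange factors and the Hsp40 partner dnajb1b were likewise not called. HSPA4 (ENSDARG00000004754), an Hsp110 exchange factor, had 601, 467, 889 and 1038 in double positive against 626, 648, 1080 and 1265 in single positive libraries (log2 difference -0.27, SE 0.19, limma adjusted p = 0.475). HSPH1, the inducible Hsp110, had 83.4, 87, 133 and 167 in double positive against 61.7, 28.5, 88.7 and 164 in single positive libraries (0.65, SE 0.40, limma adjusted p = 0.412). dnajb1b, the main Hsp40 partner of Hsp70 in the heat shock response, had 649, 353, 954 and 681 in double positive against 653, 509, 1182 and 775 in single positive libraries (-0.26, SE 0.24, limma adjusted p = 0.616). For HSPA4 both double positive libraries of each batch lay below the single positive ones, and for HSPH1 and dnajb1b the ranges overlapped. Median centring turned the differences of HSPA4 and dnajb1b to 0.01 and 0.02.

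**Figure D2:**
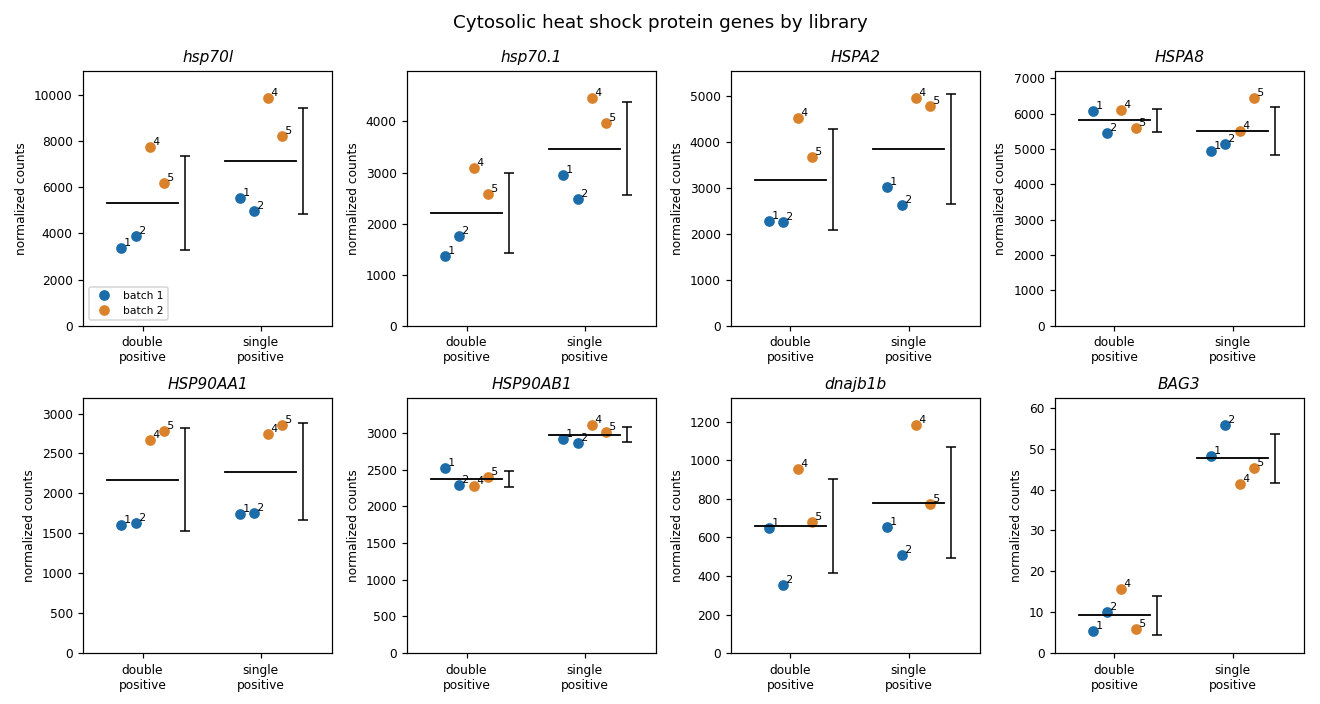
Normalized counts (linear axes from 0) of 8 cytosolic chaperone genes in each numbered library, double positive left of single positive, coloured by batch, with a line at the mean and a bar for the SD. hsp70.1 lies lower in double positive libraries within each batch, HSP90AB1 does not overlap between populations, HSPA8 overlaps, and HSP90AA1 separates by batch.

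For several abundant heat shock genes the libraries separated by batch. HSP90AA1 averaged 2762 ± 75.1 in batch 2 and 1683 ± 76.7 in batch 1, and hsp70l averaged 8006 ± 1518 in batch 2 and 4449 ± 988 in batch 1 (SD, n = 4 each, both populations). All batch 2 libraries lay above all batch 1 libraries for 8 of 72 members (11.1%), beside 0.592% of all genes, and for none below, beside 0.247%. The 8 are hsp70l, HSPA2, HSPA4 (ENSDARG00000004754), HSPH1, HSP90AA1, hsp90aa1.1, dnajb1b and TCP11L1. Among members with a mean of 100 or more they were 6 of 17 (35.3%), beside 1.03% of all genes of that level. The median log2 difference of those 17 members, batch 2 minus batch 1, was 0.61, beside -0.04 over genes of that level. HSPA8 and HSP90AB1, both constitutive, were at 0.13 and 0.02, while the ER HSP90B1 and the mitochondrial HSPA9 were at 0.64 and 0.61. The heat-inducible hsp70.1 and hsp70.3 were at 0.75 and 0.46, and both overlapped between batches. This split by batch was looked at after the values were seen. The labels call it a library batch, and what else differed between the batches cannot be told apart from it. Both batches hold both populations, so the population difference can be read within each.

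**Figure D3:**
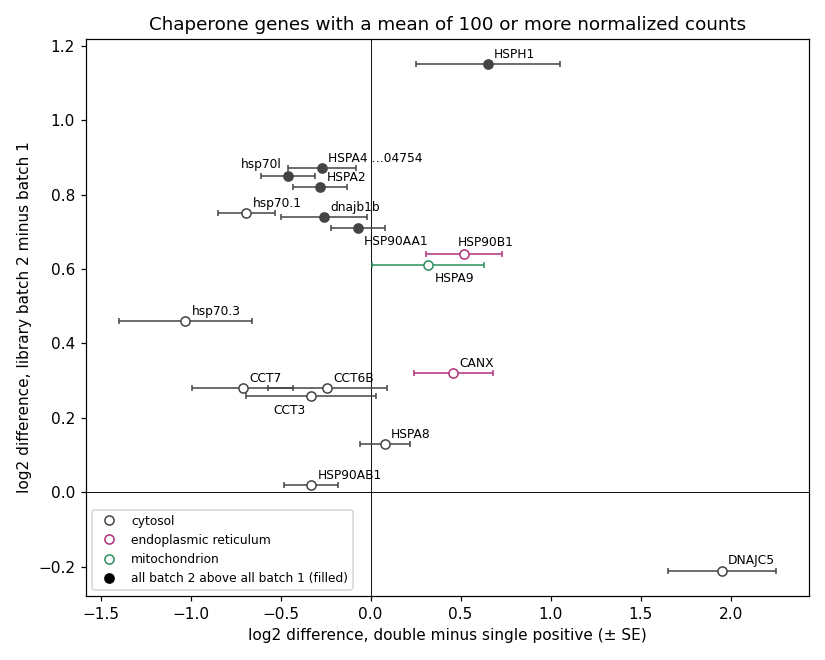
Abundant chaperone genes by their log2 population difference, double minus single positive (horizontal, bars for the SE), and their log2 batch difference, batch 2 minus batch 1 (vertical). Of the 17 genes, 16 lie above 0 on the batch axis, and on the population axis DNAJC5 lies far to the right of the others.

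Reading the populations within batches, both double positive libraries lay below both single positive ones in either batch for 9 of 72 members (12.5%), beside 9.65% of all genes, and above them for 5 (6.94%), beside 8.23%. The 9 are hsp70.1, hsp70l, HSPA2, HSPA4 (ENSDARG00000004754), HSP90AB1, BAG3, CCT7, dnaja and TCP11L1. The 5 are DNAJC5, HSPA13, HSP90B1, dnajc18 and DNAJB9 (ENSDARG00000016886). Both shares are near those of all genes.

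CCT subunits, which together form the ring that folds actin and tubulin, had values mostly below 0, with a median SE of 0.43 beside 0.79 over all members. The median log2 difference of the 8 genes was -0.39, beside -0.16 over all genes, with 1 above 0 and 7 below, and none passed the test (limma), 1 having an unadjusted p under 0.05. CCT7 (ENSDARG00000007385) is that gene, with 182, 119, 155 and 142 in double positive against 195, 204, 288 and 298 in single positive libraries. Its populations did not overlap, and the log2 difference was -0.71 (SE 0.28, limma adjusted p = 0.173), or -0.43 (0.651) under median centring. CCT3, with 65.8 to 191 in double positive and 106 to 178 in single positive libraries, and CCT6B, with 88.4 to 150 in double positive and 108 to 212 in single positive libraries, overlapped broadly. TCP1, the alpha subunit, had 0.364, 36.1, 14.9 and 30.8 in double positive against 26.5, 74.3, 19.8 and 4.79 in single positive libraries, a spread too wide for a direction (-0.82, SE 1.14). Summed over subunits, CCT was 0.0701% ± 0.00891 of the column total in double positive and 0.10% ± 0.0262 in single positive cells (SD, n = 4 each). In batch 1 these sums overlapped, at 0.072% and 0.0803% in double positive and 0.0735% and 0.0832% in single positive libraries. In batch 2 they were 0.0587% and 0.0696% against 0.128% and 0.117%. Of the 8 genes, 3 had the same sign in both batches, beside 5915 of all 10127 genes.

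BAG genes, several of whose products bind the Hsp70 ATPase domain and release its clients, had a median log2 difference of -0.97 over 6 genes, beside -0.16 over all genes. Of these 6, 1 was above 0 and 5 below, and none was called by limma (1 at an unadjusted p under 0.05). Their median was -2.73 in batch 1 and -0.32 in batch 2, beside -0.40 and 0.08 over all genes. The sign was the same in both batches for 3 of the 6. BAG3 (ENSDARG00000039486), a stress-induced co-chaperone that routes clients to autophagy, had 5.44, 10, 15.7 and 5.86 in double positive against 48.2, 55.7, 41.4 and 45.2 in single positive libraries. The populations did not overlap in either batch. The log2 difference was -2.35 (SE 0.74, 95% confidence interval -3.91 to -0.78), a fold of 0.197, with a limma adjusted p of 0.0729. That p was 0.0364 without the batch covariate, 0.152 under median centring, and 0.0644 to 0.212 with each library left out. The small heat shock proteins HSPB8, a partner of BAG3, and HSPB1 gave differences of -0.85 (SE 1.39) and -0.30 (SE 1.1), neither called. HSPB1 ranged from 0.54 to 88.9 in double positive and from 13.4 to 146 in single positive libraries, and its sign turned to 1.35 without double positive library 1.

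Genes of the ER lumen and membrane had values mostly above 0, of which 1 passed the test. Over the 20 ER members the median log2 difference was 0.55, beside -0.16 over all genes, with 13 above 0 and 7 below, and it was 0.07 in batch 1 and 1.02 in batch 2. Leaving out each library in turn gave medians of 0.27 to 0.77. The 44 cytosolic members had a median of -0.29, with 12 above 0 and 32 below, and -0.27 and -0.30 in batches 1 and 2. The medians over all genes were -0.40 in batch 1 and 0.08 in batch 2. The cytosolic median thus lay above that of all genes in batch 1 and below it in batch 2, and the ER median lay above it in both. Under median centring, which moved the median of all genes to 0.12, the ER median was 0.83 and the cytosolic median -0.01. The difference between the compartments was not tested.

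HSPA13 (ENSDARG00000040984), an Hsp70-like ATPase of microsomes that lacks the usual substrate-binding domain, was the ER gene that rose. It had 97.9, 62.7, 41 and 19.8 in double positive against 1.08, 0.491, 6.07 and 5.73 in single positive libraries, with no overlap. The means were 55.3 ± 33.3 in double positive and 3.34 ± 2.97 in single positive cells (SD, n = 4 each), a log2 difference of 3.80 (SE 1.03) and a fold of 13.9 with a 95% confidence interval of 3.07 to 62.8 (limma adjusted p = 0.035). The difference was 5.49 in batch 1 and 2.10 in batch 2. The call rests on all 8 libraries, since leaving out any 1 of them gave a limma adjusted p of 0.0524 to 0.119.

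HSP90B1 (ENSDARG00000003570), the ER Hsp90 that folds Toll-like receptors and integrins, had 439, 569, 730 and 829 in double positive against 318, 378, 522 and 563 in single positive libraries. It was higher in both double positive libraries of each batch, by 0.53 and 0.52 on the log2 scale in batches 1 and 2. Its means were 642 ± 172 in double positive and 445 ± 116 in single positive cells (SD, n = 4 each), and the log2 difference of 0.52 (SE 0.21, 95% confidence interval 0.09 to 0.96) had an unadjusted p of 0.0212 and a limma adjusted p of 0.165.

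CANX (ENSDARG00000037488), the membrane lectin calnexin, had 635, 576, 641 and 856 in double positive against 418, 444, 424 and 716 in single positive libraries. Single positive library 5 alone reached into the double positive range. The fold was 1.37 with a 95% confidence interval of 0.995 to 1.89 (log2 difference 0.46, SE 0.22, limma adjusted p = 0.272), and the differences within batches 1 and 2 were 0.49 and 0.43. CALR (ENSDARG00000076290), its soluble relative calreticulin, had 75.8, 82.1, 67.7 and 90.1 in double positive against 52.8, 47.8, 125 and 114 in single positive libraries. Its difference was 0.64 in batch 1 and -0.60 in batch 2, and 0.02 (SE 0.40, 95% confidence interval -0.83 to 0.87) over both.

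The protein disulfide isomerases PDIA4, PDIA5, PDIA6 and pdia7, which form and reshuffle disulfide bonds, gave log2 differences of 0.57 to 1.06 with standard errors of 0.94 to 1.17. All 4 were above 0 and none was called by limma, with 0 at an unadjusted p under 0.05. SERPINH1, the Hsp47 chaperone of procollagen, had 6.43, 5.31, 16.7 and 5.91 in double positive against 7.55, 15.8, 0.249 and 1.58 in single positive libraries. Its difference was -0.81 in batch 1 and 2.62 in batch 2, and 0.91 (SE 1.19) over both.

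The 11 DNAJ genes of the ER did not share a direction, with 4 above 0 and 7 below and a median of -0.10. DNAJB9 (ENSDARG00000016886), the ERdj4 co-chaperone that also restrains the stress sensor IRE1 in mammals, had 53.8, 12.8, 20.5 and 13.1 in double positive against 0.906, 0.408, 0.944 and 12.4 in single positive libraries (log2 difference 2.92, SE 1.2, limma adjusted p = 0.185). The other DNAJB9 gene (ENSDARG00000052072) had 0.32, 6.86, 22.1 and 6.46 in double positive against 52.1, 15, 3.53 and 9.1 in single positive libraries (-1.11, SE 1.24). dnajc18, a J-domain protein of the ER membrane, had 33.6, 11.5, 3.18 and 12.8 in double positive against 0.459, 0.206, 0.215 and 2.32 in single positive libraries (2.94, SE 1.08, limma adjusted p = 0.13). DNAJC16, also of the ER, lay on the other side at 0.275 to 0.909 in double positive and 0.295 to 25.2 in single positive libraries (-2.27, SE 1.02, limma adjusted p = 0.228). Of the 11 genes, the first DNAJB9 gene and dnajc18 had no overlap between the populations and were higher in double positive cells (18.2%, beside 7.12% of all genes, or 14.1% with no overlap in either direction).

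**Figure D4:**
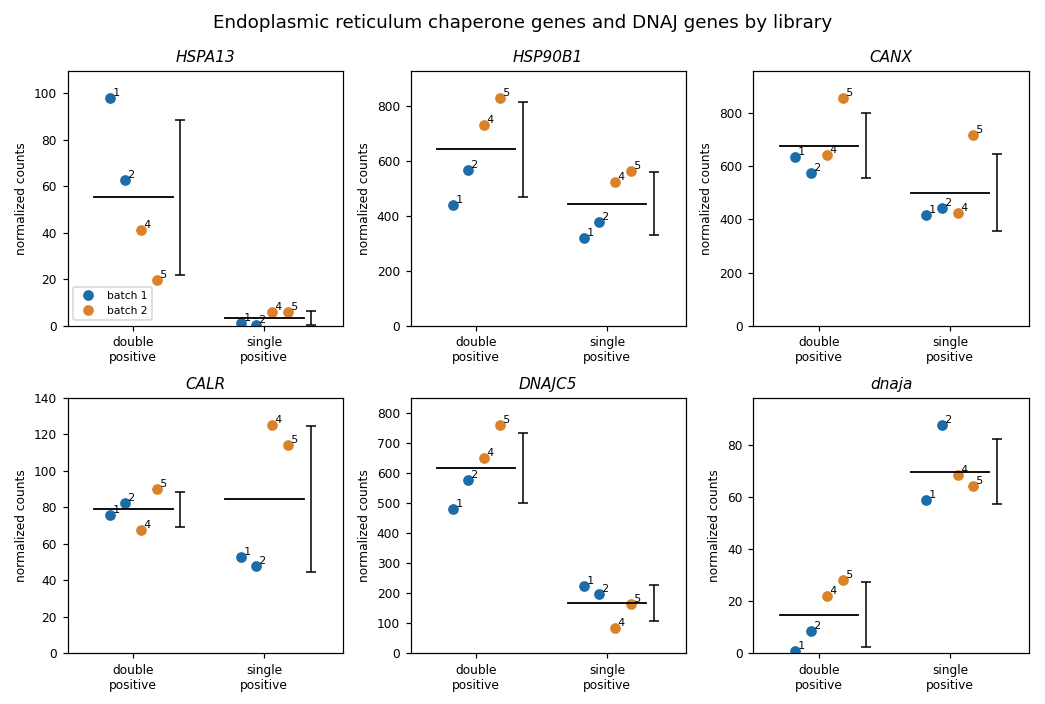
Normalized counts (linear axes from 0) of 4 ER genes and 2 DNAJ genes in each numbered library, double positive left of single positive, coloured by batch, with a line at the mean and a bar for the SD. DNAJC5 and HSPA13 do not overlap and are higher in double positive libraries, dnaja does not overlap and is lower, HSP90B1 is higher within each batch, and CALR overlaps.

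Summed over the 20 genes, ER chaperones took 0.170%, 0.182%, 0.178% and 0.246% of the column total in double positive libraries 1, 2, 4 and 5, against 0.113%, 0.142%, 0.155% and 0.211% in single positive libraries. In batch 1 both double positive libraries were above both single positive ones, and in batch 2 these shares overlapped. Not divided by the column total, the sums in batch 2 were 1823 and 2139 in double positive against 1257 and 1697 in single positive libraries, with no overlap. Both double positive column totals of batch 2 were above both single positive ones, which lowers the double positive shares. Markers of other cell types were read beside these values. The 9 fibroblast and epicardial markers summed to 0.0617% to 0.284% in double positive and 0.018% to 0.151% in single positive libraries. Their median was -1.80 in batch 1 and 3.34 in batch 2. The 3 genes called higher were wt1b, whose promoter drives the green reporter of the sort, and both FN1 genes. FN1 made up most of the sum in every double positive library. COL1A2, of the same list, overlapped, at 5.55 to 236 in double positive and 11.7 to 145 in single positive libraries. The 6 neutrophil markers summed to 0.163% to 0.249% in double positive and 0.0957% to 0.125% in single positive libraries. Most of that sum in every library was 1 gene, NCF1, so it is no measure of a neutrophil share. NCF1 had 1069 to 1957 normalized counts in double positive and 628 to 811 in single positive libraries. The part of either list in the ER values was not tested.

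DNAJC5 had the smallest adjusted p of any member. DNAJC5 (ENSDARG00000004836) encodes cysteine string protein, a palmitoylated J-domain protein on secretory and synaptic vesicles that works with Hsc70 on membrane fusion proteins. It had 480, 575, 648 and 758 in double positive against 223, 196, 83 and 163 in single positive libraries, so the lowest double positive library was above the highest single positive one. The means were 615 ± 117 in double positive and 166 ± 60.7 in single positive cells (SD, n = 4 each), a log2 difference of 1.95 (SE 0.30) and a fold of 3.87 with a 95% confidence interval of 2.5 to 6.01 (limma adjusted p = 0.000902). The difference was 1.32 in batch 1 and 2.58 in batch 2, and leaving out each library in turn gave limma adjusted p-values of 3.6e-05 to 0.00755. Without the mean-variance trend the limma adjusted p was 0.0834, and in batch 1 alone it was 0.341. The fit of batch 1 alone called 0 genes in the whole table and gave hsp70.1, HSPA13 and dnaja the same adjusted p, so that value is not particular to DNAJC5.

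The relatives of DNAJC5 did not share its pattern. dnajc5ga had 6.7, 1.57, 7.74 and 3.48 in double positive against 1.49, 11.4, 0.572 and 12.1 in single positive libraries (log2 difference 0.07, SE 1.17). dnajc5gb had 10.9, 44, 15.5 and 5.2 in double positive against 41.8, 15.3, 43 and 29.5 in single positive libraries (-1.02, SE 0.81). Both overlap between the populations, at a precision that leaves differences of several-fold undetected.

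dnaja (ENSDARG00000051762), a J-domain gene of the A type, was the DNAJ gene that fell. It had 0.766, 8.61, 21.8 and 28.1 in double positive against 58.9, 87.5, 68.3 and 64.2 in single positive libraries, with no overlap. The means were 14.8 ± 12.4 in double positive and 69.7 ± 12.5 in single positive cells (SD, n = 4 each), and the log2 difference was -2.76 (SE 0.78, fold 0.147, limma adjusted p = 0.0405). It was -4.14 in batch 1 and -1.38 in batch 2. The call was lost without double positive library 4 or 5 or without any single positive library (limma adjusted p = 0.0756 to 0.177).

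Over all 28 tested DNAJ genes the median log2 difference was -0.10, with 13 above 0 and 15 below and 2 called (7.14%). The 14 cytosolic DNAJ genes had a median of -0.07, with 7 on each side. The remaining DNAJ genes, apart from those named, had log2 differences of -1.42 to 1.51.

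Mitochondrial chaperones showed no call. HSPA9, the mortalin that pulls proteins through the inner membrane, had 183, 335, 320 and 275 in double positive against 108, 225, 313 and 292 in single positive libraries (log2 difference 0.32, SE 0.31, limma adjusted p = 0.636). HSPD1, the Hsp60 ring, had 25.1, 68.2, 25.1 and 51.8 in double positive against 25.6, 89.3, 83.9 and 119 in single positive libraries (-0.83, SE 0.56, limma adjusted p = 0.467). HSPE1, the Hsp10 lid of that ring, had 32, 27.6, 8.43 and 8.87 in double positive against 8.26, 39.3, 28.5 and 33.1 in single positive libraries (-0.52, SE 0.83, limma adjusted p = 0.795). All 3 overlapped. Over the 6 tested mitochondrial members the median was -0.10, with 3 on each side, and limma called 0 of them, with 0 at an unadjusted p under 0.05.

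Genes that work with the chaperones were read from lists written from general knowledge, not by how they moved. Of 14 cochaperones of Hsp90, such as the immunophilins and SGTA, and of 12 prefoldin and CCT partners, limma called 0, with 0 at an unadjusted p under 0.05 and medians of -0.09 and -0.22. Of 11 heat shock factors and stress partners, 1 was called, as lower (9.09%, beside 6.69% of all genes). It was UBB (ENSDARG00000002369), a polyubiquitin gene induced by heat, with 393, 475, 598 and 585 in double positive against 752, 691, 797 and 1176 in single positive libraries. The populations did not overlap (log2 difference -0.72, SE 0.20, limma adjusted p = 0.0402), and under median centring it was -0.44 with an adjusted p of 0.536. Of 16 genes of mitochondrial import, folding and proteolysis, which include HSPD1 and HSPE1, 1 was called (6.25%, beside 6.69% of all genes). TOMM40 was lower, at 0.0391 to 0.341 in double positive and 8.04 to 27.8 in single positive libraries (-3.87, SE 1.00, limma adjusted p = 0.0271).

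For the ER, genes that sense stress and genes that carry out folding and translocation gave different medians. Of 20 genes of the unfolded protein response limma called 0, with 0 at an unadjusted p under 0.05, and the median log2 difference was -0.24, with 7 above 0 and 13 below. HERPUD1, with the smallest p of that list, was at -0.48 (SE 0.28, limma adjusted p = 0.384). Of 38 further genes of ER translocation, glycosylation, folding and quality control, the median was 0.52, with 27 above 0 and 11 below. At an unadjusted p under 0.05, 9 were higher and 0 lower, beside 916 higher and 1016 lower of all 10127 genes. Only 1 was called (2.63%, less than the 6.69% of all genes). That gene is SSR2 (ENSDARG00000005230), a subunit of the translocon-associated protein complex, with 328, 293, 220 and 245 in double positive against 173, 131, 90.9 and 144 in single positive libraries. Its populations did not overlap (log2 difference 1.02, SE 0.28, limma adjusted p = 0.0379). The medians of this list within batches 1 and 2 were 0.41 and 0.89, beside -0.40 and 0.08 over all genes. Whether the lists differ was not tested.

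**Figure D5:**
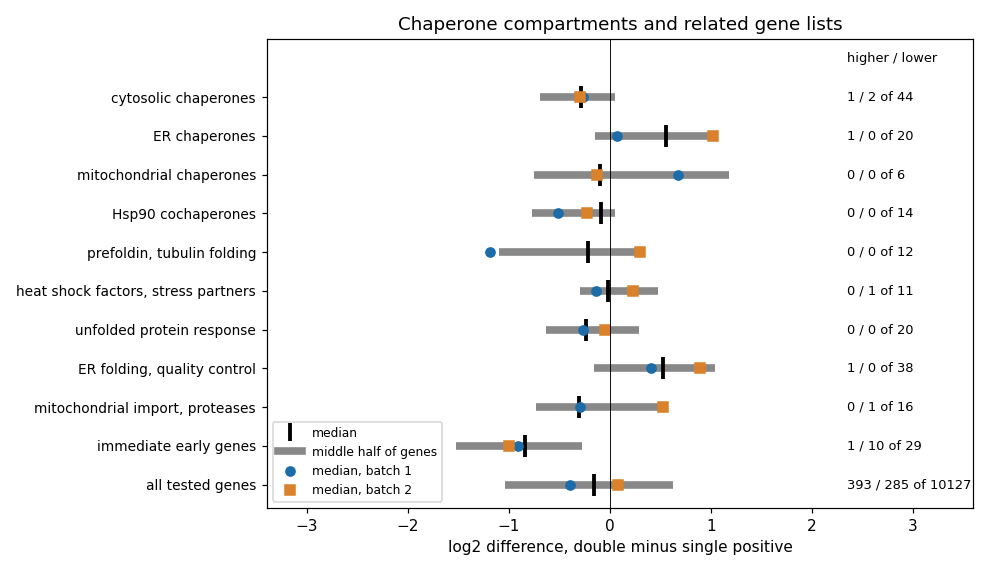
Median log2 difference, double minus single positive, of chaperone compartments and related gene lists (black tick), with a grey bar from the lower to the upper quartile of genes, the medians within batch 1 (circle) and batch 2 (square), and the counts called higher and lower at the right. ER members and the list of ER folding and quality control have medians of 0.55 and 0.52, cytosolic members -0.29, the unfolded protein response -0.24 and all tested genes -0.16.

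All 73 chaperone genes together took 2.54%, 2.43%, 3.27% and 3.48% of the column total in double positive libraries 1, 2, 4 and 5, against 2.78%, 2.89%, 4.70% and 4.57% in single positive libraries. The means were 2.93% ± 0.524 in double positive and 3.74% ± 1.04 in single positive cells (SD, n = 4 each). Within either batch both double positive libraries were lower than both single positive ones. Most of this sum comes from the cytosolic members, at 2.69% ± 0.505 in double positive and 3.53% ± 0.989 in single positive cells (SD, n = 4 each).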

How the data were processed

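Libraries of 8 sorted cell pools were sequenced. Per the labels' protocols, polyadenylated RNA (1 ng of total RNA each) was amplified before library construction, and single-end reads were 60 to 61 bases long. The submitters' processing notes name CASAVA 1.8.2, cutadapt, RSEM 1.2.3 and the build Zv9, without their roles. The authors deposited a linear signal, which they call normalized counts. Values are not whole numbers and the lowest is 0.0143. How they were scaled, whether they were adjusted for batch, and the read depth are not stated, so no counting interval can be given. If a batch adjustment beyond the mean was made, standard errors here would be too small. Low values may be products of the normalization.

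Symbols came from a table of identifiers, which matched 8512 of 10479 genes (81.2%). A chaperone gene among the 1967 unmatched ones, which hold 26.1% of the summed value, would be missed. No gene lengths were used, so levels are not compared between genes. No member shares its 8 values with another gene.

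A gene was tested if 4 or more libraries held at least 1 part in 1000000 of their column total for it (10127 genes, with 352 left out) on log2(value + 1) without further scaling, a scale that understates changes of low genes. limma 3.58.1 (R 4.3.3) fitted population and library batch, moderated with a mean-variance trend, leaving 5 residual degrees of freedom. Tests were two-sided, and calls were made below 0.05 after Benjamini-Hochberg adjustment. The code was tested on simulated data. Each library is a pool of hearts, taken as a biological replicate. Whether equal numbers in the populations share hearts is not stated.

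The members and lists were chosen with earlier results of these data known. Classes and lists are described by counts and medians, with no test over a list. Named genes are every called member, the 2 of highest mean in each class, well-known members and, in classes without a call, the smallest p. A further 7 members with an unadjusted p under 0.05 or a mean of 100 or more were added after the values were seen, as were a few others given by value. Alternatives covered the pseudocount, the filter, scaling, the covariate, the trend, each batch and each library left out.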

Additional observations from a re-analysis of the deposited data

Results flagged for a closer look

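Within a population of 4 libraries, a library was picked out by its gap to the nearest other value on the scale of log2(value + 1). It was picked out where that gap was too large a part of the population's range (above Dixon's 95% limit for 4 values). Values below are given on the linear scale. This was looked at for 76 sets of 4 values, 38 members in each population, and picked out 7, where chance picks out about 1 in 20.

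In 2 of the 7, double positive library 1, the library with the most genes under 1, was the lowest: bag6 (ENSDARG00000075892) was at 0.322 there and at 38.5 to 62.7 in the other double positive libraries, and HSPB1 was at 0.54 there and at 66.2 to 88.9 in the others. The same library was the highest for HSPA14, at 2.4 against 0.181 to 0.29 in the others. Single positive library 5 was the highest for CANX, at 716 against 418 to 444, and for DNAJB9 (ENSDARG00000016886), at 12.4 against 0.408 to 0.944. Double positive library 2 was the lowest for PDIA5, at 6.1 against 31.2 to 42.6. Double positive library 4 was the highest for SERPINH1, at 16.7 against 5.31 to 6.43. None of these 7 genes was called between the populations.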

How the results depend on the processing

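With all libraries, 2 members were called higher and 2 lower, among 678 genes. A pseudocount of 5 and both other filters called the same 4 members. A pseudocount of 0.1 also gave 2 and 2, with hsp70l (0.0483) in place of dnaja (0.0598), and so did the fit without the batch covariate, with BAG3 (0.0364) in place of hsp70.1 (0.0902). Median centring gave 1 lower member, among 762 genes of which 71.1% were higher (58% as reported), and quantile normalization gave 4. Without the mean-variance trend 1 was higher and 0 lower, among 319 genes, with 5 members lower at an unadjusted p under 0.05. Batch 1 alone gave 0 calls over all genes, 0 higher and 0 lower members, with 5 and 7 at an unadjusted p under 0.05, and batch 2 alone gave 1 higher and 0 lower, with 5 and 10. Leaving out each library in turn gave 270 (without double positive library 5) to 805 genes, 321 without double positive library 4, 357 and 386 without single positive libraries 4 and 5, 1 higher member each time and 0 to 2 lower members (0 without single positive library 1, with 8 at an unadjusted p under 0.05). With fewer libraries, fewer degrees of freedom remain.

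With the replicate number as a block in place of batch, 1 member was higher and 1 lower, among 473 genes. Nothing shows that the numbers pair the libraries. Same-numbered libraries' deviations from their population means correlated at -0.292 to -0.112, and with batch means removed at 0.0147 (batch 1) and 0.00014 (batch 2). Before batch means were removed, pairs of the same batch with different numbers were at -0.255 to -0.105. Pairs of different batches were at 0.0942 to 0.283. The sign thus followed batch and not number, and what lies behind it was not tested.

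Of 718 alternatives for 38 members, 647 kept direction and side of the threshold. Most of the 38 were not called as reported, so this count mainly shows uncalled members staying uncalled. The called members kept their calls less often: DNAJC5 in 17 of 19 alternatives, hsp70.1 in 12, HSPA13 in 8 and dnaja in 8. The sign turned under median centring for CCT6B (0.04), dnajb1b (0.02), HSPA4 (0.01) and HSP90AA1 (0.21), under quantile normalization for CALR (-0.01), HSPA8 (-0.23), HSP90AA1 (0.04) and HSPB1 (0.17), and with a pseudocount of 5 for HSPB1 (0.02). It turned in batch 1 alone for bag6 (-2.95), HSPE1 (0.67), PDIA5 (-0.80), SERPINH1 (-0.81) and TCP11L2 (0.27), and in batch 2 alone for CALR (-0.60), HSPA8 (-0.03), HSPA9 (-0.03), PDIA6 (-1.64), HSPB1 (2.09) and TCP1 (1.03). Leaving out each library, 7 genes turned: bag6 (-1.12 to 1.85), CALR (-0.13 to 0.23), PDIA6 (-0.59 to 1.41), PDIA4 (-0.35 to 1.34), PDIA5 (-0.02 to 1.84), HSPB1 (-0.99 to 1.35) and TCP1 (-1.56 to 0.50). The cause was not tested. Depth is unknown, and low members had standard errors above 0.40.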

Other observations

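Within a library, the ratio of 2 Hsp70 genes shows unequal change and does not depend on a single factor applied to the whole library. How the deposited values were scaled is not stated, and an adjustment made gene by gene would change such ratios. The ratio of hsp70.1 to HSPA2 was 0.603 to 0.773 in double positive and 0.83 to 0.981 in single positive libraries, with no overlap. The ratio of hsp70l to hsp70.1 was 2.23 to 2.51 in double positive and 1.88 to 2.21 in single positive libraries, also with no overlap. The ratio of hsp70l to HSPA2 was 1.49 to 1.72 in double positive and 1.72 to 1.99 in single positive libraries. Other Hsp70 ratios overlapped. For hsp70l to hsp70.3 it was 2.85 to 19.9 in double positive and 3.82 to 7.1 in single positive libraries. For hsp70l to HSPA8 it was 0.557 to 1.27 in double positive and 0.968 to 1.79 in single positive libraries. The ratio of HSP90AA1 to HSP90AB1 was 0.636 to 1.18 in double positive and 0.596 to 0.946 in single positive libraries. These pairs were chosen after the values were seen, gene length was not taken into account, and reads shared between paralogs could enter each ratio. What the ratios reflect was not tested.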
